A study of Caenorhabditis elegans with 2 samples.

Results

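A divergent promoter is the stretch of DNA between the starts of 2 neighbouring genes that are transcribed away from each other, so that both genes can take their regulation from the same short sequence. The regions described here are the autosomal lines of a thresholded list of SPR-1 ChIP-seq regions whose summit, the position of highest signal in a region, lay in such a gap. The gene on the left was on the minus strand and the gene on the right on the plus strand, both annotated starts lay within 1000 bp of the summit, and summits within 200 bp of a tRNA gene were omitted. This left 215 of the 1686 thresholded lines, at 211 gene pairs, and 5 lines were omitted for a tRNA gene. The rule used position and not signal, but every line had already passed the authors' threshold.

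Chromatin immunoprecipitation followed by sequencing (ChIP-seq) was done on whole hermaphrodites of Caenorhabditis elegans at the L4 larval stage, 50 hours after synchronisation as starved L1 larvae. The strain, OP521, has the genotype unc-119(tm4063) III; wgIs521 and expresses SPR-1 fused to GFP and FLAG at its C-terminus from an integrated transgene, and chromatin was precipitated through the GFP. There was 1 group of 2 biological replicates, and all animals carried the same transgene and unc-119 allele. No list from an untagged strain was used here, so a thresholded region is not shown to be specific to SPR-1, and whole animals do not show in which cells a region was bound. The pooled list, made from both replicates, had 30000 candidate lines, replicate 1 had 26070 and replicate 2 had 21966. By the authors' label the pooled list holds peaks and background, so a candidate need not be a bound region. Read depth is unknown, and the scale of the signal, the authors' value for each region, was not given in the sources used here.

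SPR-1 is the worm counterpart of CoREST, a corepressor that in mammals links the histone demethylase LSD1 and histone deacetylases to DNA-bound factors. Promoters with closely spaced divergent genes are common in compact genomes, and in mammals housekeeping genes are often found at them. In C. elegans transcripts are often trans-spliced, so the annotated start of a gene can lie some way inside the transcript as first made, and distances given here are to the annotation.

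The sequences at the 8 strongest of these regions that could be shown are given first, since the gene pairs, base composition and short words described further on can be read in them. Each is the plus strand, 5′ to 3′, of the RefSeq genome sequence of WBcel235 (ce11), 50 bp on each side of the summit, and the one at rpl-12/lin-54 is cut at the annotated start of rpl-12. The gene on the minus strand is named first. Capitals mark CGCG, and the words ACCGTA and TACGCA on either strand, whose reverse complements read TACGGT and TGCGTA.
rpl-20/Y17G9B.5 (chrIV:4750013-4750113): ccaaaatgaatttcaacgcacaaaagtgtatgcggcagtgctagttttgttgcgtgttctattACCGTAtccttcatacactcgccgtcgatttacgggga
rpl-15/K11H12.8 (chrIV:654872-654972): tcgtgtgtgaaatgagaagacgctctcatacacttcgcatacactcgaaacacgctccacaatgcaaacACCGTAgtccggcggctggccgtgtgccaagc
K01G5.10/tasp-1 (chrIII:10759201-10759301): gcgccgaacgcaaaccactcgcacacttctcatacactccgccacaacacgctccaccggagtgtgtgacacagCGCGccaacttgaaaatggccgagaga
ifet-1/rps-1 (chrIII:4475598-4475698): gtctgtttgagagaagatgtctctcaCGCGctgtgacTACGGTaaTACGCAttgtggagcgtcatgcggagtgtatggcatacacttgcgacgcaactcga
Y22D7AL.10/hsp-60 (chrIII:1619095-1619195): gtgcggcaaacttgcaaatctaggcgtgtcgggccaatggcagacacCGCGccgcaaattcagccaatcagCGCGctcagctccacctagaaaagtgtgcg
rpl-12/lin-54 (chrIV:13240652-13240720): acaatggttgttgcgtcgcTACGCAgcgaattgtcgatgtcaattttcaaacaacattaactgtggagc
iff-2/F54C9.14 (chrII:8561385-8561485): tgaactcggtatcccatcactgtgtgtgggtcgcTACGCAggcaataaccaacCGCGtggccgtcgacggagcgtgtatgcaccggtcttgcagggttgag
larp-1/wip-1 (chrIII:5018273-5018373): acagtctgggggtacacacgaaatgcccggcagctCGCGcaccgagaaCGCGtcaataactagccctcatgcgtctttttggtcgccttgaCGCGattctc

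GC content in these stretches ran from 43.5% at rpl-12/lin-54 to 59.4% at iff-2/F54C9.14. The word ACCGTA or its complement stood in the stretches of rpl-20, rpl-15 and rps-1, and TACGCA in those of rps-1, rpl-12 and iff-2. The stretches of K01G5.10/tasp-1, hsp-60 and larp-1/wip-1 held CGCG but neither of the other words.

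The strongest divergent promoters were led by genes of protein synthesis. Of the 25 with the highest signal, 9 had a cytosolic ribosomal protein gene on one side. Among all 215 regions 25 had such a gene, and of the 861 divergent candidates 811 had none. All of the 25 strongest were among the 1686 highest-signal lines of each replicate, at rank 202 or better in replicate 1 and rank 152 or better in replicate 2. The strongest, between rpl-20, which encodes a protein of the large ribosomal subunit, and Y17G9B.5, had a pooled signal of 1081, with 588 and 492 in replicates 1 and 2. Its interval ran from 4749869 to 4750273 on chromosome IV, with the summit 285 bp upstream of rpl-20 and 177 bp upstream of Y17G9B.5. The next, between rpl-15 and K11H12.8 (chromosome IV, 654694 to 655147), had a signal of 1001, with 539.8 and 461 in replicates 1 and 2. These had ranks 2 and 5 among the nuclear lines, and both replicates placed them in the same order. Signals are compared only within a list.

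Several of these promoters joined a ribosomal protein gene to a gene of another kind. Shared here means that the summit lay between both starts, and use of the region by both genes was not tested. The promoter of rps-1, of the small subunit, was shared with ifet-1, which encodes the counterpart of the eIF4E transporter, a repressor of translation, and had a signal of 617 (318 and 304 in replicates 1 and 2). The promoter of rpl-12 was shared with lin-54, the DNA-binding subunit of the DREAM complex, and had a signal of 533 (252 and 282). Here the summit lay 19 bp from the start of rpl-12 and 374 bp from that of lin-54. The promoter of rps-19 was shared with hsr-9, the counterpart of the DNA damage factor 53BP1 (signal 462, with 279 and 184). Those of rps-20 and ekl-4 (423, with 242 and 179.8), ska-3 and rps-12 (327, with 176 and 149), tmem-107 and rps-26 (284, with 159.7 and 124) and rpl-7A and set-21 (273, with 128 and 147) followed. ska-3 encodes a kinetochore protein, tmem-107 a protein of the ciliary transition zone and set-21 a protein with a SET domain.

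Over all 215 regions, 25 lines held 28 cytosolic ribosomal protein genes. The summit was nearer to the ribosomal protein gene at 12 of these 28 genes and nearer to the partner at 16, and the median distance was 281 bp to the ribosomal protein gene (range 19 to 744) and 261 bp to the partner. Both genes encoded ribosomal proteins in 3 pairs, rps-10/rpl-24.1 (signal 155), rpl-39/rps-30 (145) and rps-14/rpl-36 (137), which are named after their values were seen. Each of these 3 summits entered the counts and medians once per gene, and so added equally to both sides.

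Protein folding, translation and secretion were also present among the strongest. The promoter between Y22D7AL.10 and hsp-60, the mitochondrial chaperonin, had a signal of 549 (286 and 257 in replicates 1 and 2), with the summit 597 bp from hsp-60 and 216 bp from its partner. That of cct-8, a subunit of the cytosolic chaperonin, and Y55F3AR.2 had 439.6 (216 and 223), and that of F54D5.9 and dnj-13, an Hsp40 cochaperone gene, had 343 (182 and 162). iff-2, which encodes the translation factor eIF5A, and F54C9.14 had 460.4 (223 and 233). larp-1, a La-related RNA-binding protein gene, and wip-1 had 454 (248 and 206). nhl-2, whose TRIM-NHL protein is a cofactor of microRNAs, and tag-340 had 445 (254 and 194). sec-61.B and trap-3 encode a translocon subunit and a translocon-associated protein of the endoplasmic reticulum, so both genes of that pair serve protein entry into this compartment (signal 403, with 227 and 176).

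Other strong regions lay between genes of chromatin, the cytoskeleton and metabolism. K01G5.10/tasp-1, with a signal of 849 (467 and 381 in replicates 1 and 2), lay 56 bp from the start of tasp-1, the counterpart of the protease taspase 1, which in mammals cleaves MLL. drr-2/set-16, with 444 (226 and 212), lay 189 bp from the start of drr-2 and 157 bp from that of set-16. SET-16 is the MLL3/4-type histone H3K4 methyltransferase. lin-53/nra-2, with 355 (179 and 167), lay midway between the starts, 234 and 233 bp away, and lin-53 encodes the RbAp46/48 histone-binding protein found in several chromatin complexes. mcrs-1/atp-1, with 329 (185 and 148), lay 18 bp from the start of atp-1, the alpha subunit of ATP synthase, in the shortest gap of the 25 (190 bp). gmps-1/cap-2 (309), R107.5/cls-2 (304), gpap-1/scpr-1 (289), fbxb-85/hex-3 (283) and let-70/klc-1 (276) made up the rest of the 25. gmps-1 encodes GMP synthetase, cap-2 the beta subunit of actin capping protein, cls-2 a CLASP microtubule-binding protein, let-70 a ubiquitin-conjugating enzyme and klc-1 a kinesin light chain. None of the 25 was on chromosome V, 9 were on III, 7 on IV, 6 on I and 3 on II.

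**Figure D1:**
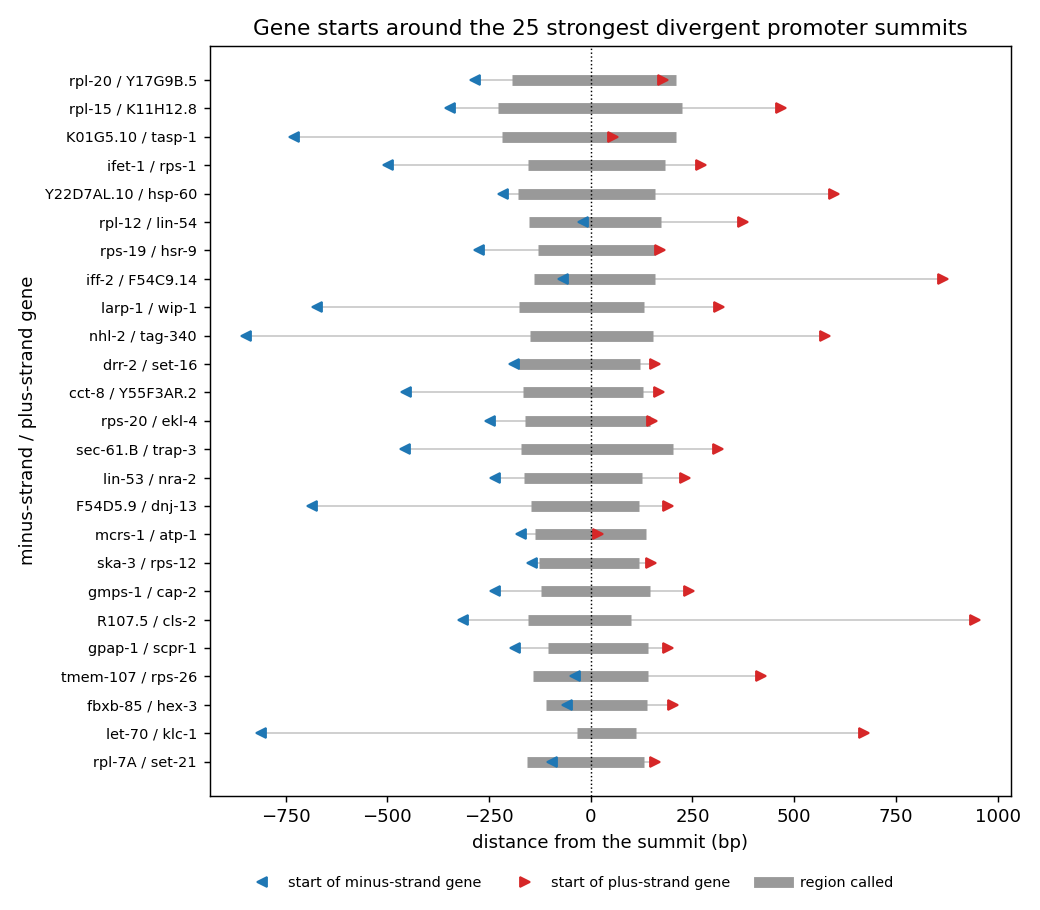
Gene starts and called regions at the 25 divergent promoters of highest signal, strongest at the top. The x axis is the distance from the summit in bp, blue and red triangles are the annotated starts of the minus-strand and plus-strand gene, and grey bars are the called intervals. The gaps ran from 190 to 1482 bp, with a median of 476 bp.

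Summits lay at varied positions between the starts, at a median of 51.9% of the way from the minus-strand start (quartiles 34.5% and 68.3%). Over the 215 regions the gap between the starts had a median of 524 bp (range 60 to 1659), the nearer start was a median of 159 bp away (1 to 784) and the farther start 345 bp. Of the summits, 105 (48.8%) lay in the middle one of 3 equal parts of the gap. The minus-strand gene was nearer in 100 and the plus-strand gene in 115. The called interval reached neither start at 75 regions (34.9%), 1 start at 103 (47.9%) and both at 37 (17.2%). At 85 regions both starts were within 300 bp and at 159 within 500 bp, and 2 summits lay inside the body of an overlapping protein-coding gene. The interval was 460 bp wide at most, and 55 (25.6%) were narrower.

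Divergent gaps of middle length carried a thresholded region in the highest share of pairs. Of the 2382 autosomal head-to-head pairs up to 2000 bp apart, 8.86% had a thresholded summit that met the rule, and the median gap of all these pairs was 658 bp. The share was 5.37% for gaps up to 200 bp, 12.4% for 201 to 400 bp, 15.8% for 401 to 600 bp and 11.2% for 601 to 800 bp. It was 9.41% for 801 to 1000 bp, 4.07% for 1001 to 1500 bp and 0.727% for 1501 to 2000 bp, where the rule itself admits few summits. The share of pairs with any candidate followed the same course, from 15.7% in the shortest gaps to 44.6% at 401 to 600 bp and 6.55% in the longest. Among pairs with a candidate the shortest gaps were not lower. There the thresholded share was 34.2% up to 200 bp, 29.8% at 201 to 400 bp and 35.5% at 401 to 600 bp. It was 26.8% at 601 to 800 bp, 27.6% at 801 to 1000 bp, 15.4% at 1001 to 1500 bp and 11.1% in the longest.

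A candidate between divergent starts was thresholded in a larger share of cases than a candidate at any other kind of place compared. Of 861 divergent candidates in the pooled list 215 were thresholded (24.97%), where 4.80% of all 24707 autosomal candidates away from tRNA genes were. In each replicate alone, with its own 1686 highest-signal lines standing in for the thresholded list, the shares were 205 of 770 (26.6%) in replicate 1, where the background was 5.54%, and 211 of 710 (29.7%) in replicate 2, where it was 7.02%. The mean of the replicates was 28.2% ± 2.19 (SD, n = 2). Divergent promoters were 3.48% of autosomal candidates and 18.1% of thresholded lines, with 17.1% ± 0.146 (SD, n = 2) of the strongest lines of a replicate.

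The nearest comparison is with candidates that lie outside gene bodies and upstream of 1 gene only within 1000 bp. Of these, 331 of 3275 (10.1%) were thresholded, with 11.4% in replicate 1 and 14.1% in replicate 2 (mean 12.7% ± 1.85, SD, n = 2). The divergent share was 2.47 times as high in the pooled list, 2.33 times in replicate 1 and 2.11 times in replicate 2, so the gap between the classes was wider than the spread between the replicates. For all other promoter candidates together, within 1000 bp of any protein-coding start, the share was 5.42% (508 of 9371), and the replicate mean was 7.12% ± 1.27. Those with 2 or more starts in reach that were not head to head had 5.86% (68 of 1161) and those with 1 start had 5.36% (440 of 8210). Candidates beyond promoters had 3.21% (464 of 14475). Regions are not replicates, so no test was run over them, and the shares in the 2 replicates are the measure of error.

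**Figure D2:**
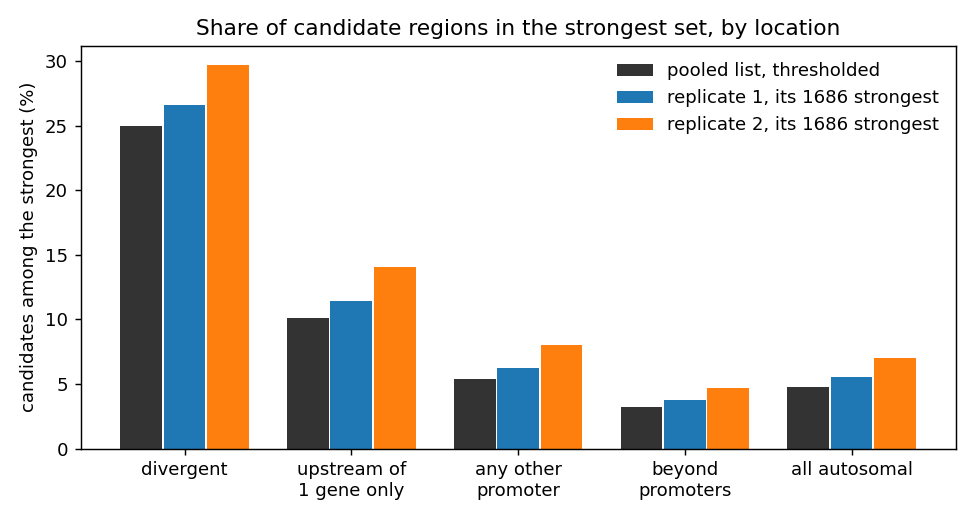
Share of autosomal candidate regions that were thresholded, by place. Bars give percent of candidates for the pooled list (dark grey) and for the 1686 highest-signal lines of replicate 1 (blue) and replicate 2 (orange). Divergent candidates had 24.97%, 26.6% and 29.7%, and candidates upstream of 1 gene only had 10.1%, 11.4% and 14.1%.

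The difference from candidates upstream of 1 gene was present at every distance from the nearest start. Within 100 bp of a start, 24.8% of divergent candidates and 8.05% of the others were thresholded. Over 100 and up to 200 bp the shares were 29.2% and 11.6%, at 201 to 300 bp 23.8% and 15.9%, at 301 to 500 bp 20.4% and 10.9%, and at 501 to 1000 bp 17.3% and 7.46%. In the 2 replicates alone the divergent share was also above the other in each of these 5 ranges. At 201 to 300 bp the pairs of shares lay closest in replicate 2, at 24.8% and 20.6%.

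How far away the second gene started went with the share. Over head-to-head gaps of any length with the nearer start within 1000 bp, 31.2% of candidates were thresholded when the farther start was within 300 bp and 30.7% when it was 301 to 500 bp away. The share was 16.1% at 501 to 1000 bp, 14.9% at 1001 to 2000 bp, 9.38% at 2001 to 5000 bp and 11.4% beyond that. Replicate 1 alone went from 32.7% in the nearest range to 10.8% in the farthest and replicate 2 from 37.3% to 14.3%. On the 2 sides of the 1000 bp limit used in the rule the shares were 16.1% and 14.9% in the pooled list, 18.8% and 15.5% in replicate 1 and 22.2% and 18.9% in replicate 2. This split was chosen after seeing the data.

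GC content at the summit moved with the share in both classes. Below 35% GC, 6 of 288 divergent candidates (2.08%) and 34 of 1506 candidates upstream of 1 gene (2.26%) were thresholded. From 35 to 45% the shares were 20.3% and 9.52%, from 45 to 55% they were 47.6% and 23.9%, and at 55% or more they were 60% (36 of 60) and 30.2% (64 of 212). In replicate 1 the shares at 45 to 55% were 50.9% and 24.2%, and in replicate 2 they were 54.02% and 29.2%. So within each GC class from 35% upward the divergent share was higher in the pooled list and in each replicate, and below 35% the pooled shares were close, with 3.61% against 2.68% in replicate 1 and 6.13% against 3.46% in replicate 2. This split too was chosen after seeing the data.

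**Figure D3:**
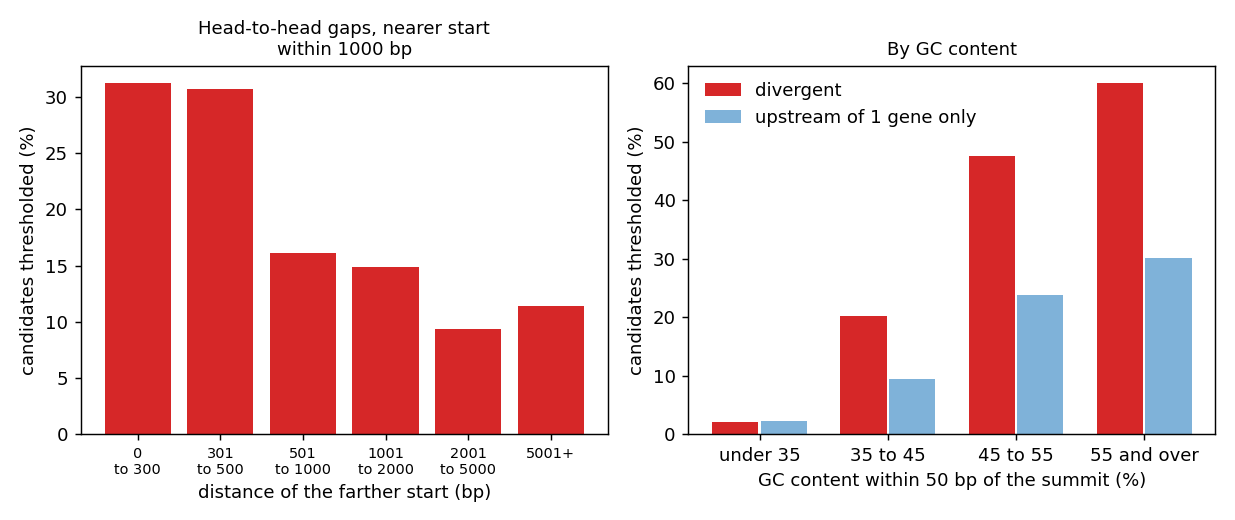
Share of candidates thresholded in the pooled list, in percent. Left, head-to-head gaps by the distance of the farther start in bp, from 31.2% at 300 bp or less to 11.4% beyond 5000 bp. Right, divergent candidates (red) and candidates upstream of 1 gene only (blue) by GC content within 50 bp of the summit, where both rise and the divergent bars reach 60%.

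In the pooled list, genes of ribosomes, chaperones and chromatin enzymes had the highest shares of thresholded divergent promoters among the 20 gene lists. The order differed between replicates: histones had 7 of 10 (70%) in replicate 1 and the respiratory chain 12 of 19 (63.2%) in replicate 2, each above some of these lists. A total of 1518 genes had a divergent candidate, and 27.8% of them had a thresholded one. In replicate 1 alone the background was 28.4% and in replicate 2 it was 32.6%. For proteins of the small ribosomal subunit 11 of 17 genes (64.7%) had one, with 11 of 15 in replicate 1 and 12 of 17 in replicate 2. For the large subunit the count was 17 of 28 (60.7%), with 17 of 26 and 15 of 27. For chaperones it was 14 of 22 (63.6%), with 13 of 19 and 11 of 21. After hsp-60, cct-8 and dnj-13 the strongest was cct-1 (signal 261, 133 and 130.1 in replicates 1 and 2), another subunit of the cytosolic chaperonin.

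Chromatin enzymes and remodellers, a list that holds the CoREST, LSD1 and deacetylase genes, had 7 of 11 (63.6%), with 6 of 12 in replicate 1 and 7 of 10 in replicate 2. These were set-16 (signal 444), set-21 (273), jmjd-4 (176, with 87.3 and 82.1) and jmjd-1.2 (156, with 98.5 and 57.9), followed by swsn-6 (99.6), set-26 (92.3) and hda-6 (88.3), which are named after their values were seen. jmjd-1.2 encodes a PHF8-type histone demethylase, swsn-6 an actin-like subunit of the SWI/SNF remodeller and hda-6 a histone deacetylase. At set-16 the partner was drr-2, at set-21 it was rpl-7A and at jmjd-4 it was mev-1, a subunit of succinate dehydrogenase. A region between 2 starts does not show which gene it serves.

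Translation factors had 8 of 17 genes (47.1%), the respiratory chain 10 of 25 (40%), histones 6 of 14 (42.9%) and DNA replication and cell cycle genes 9 of 24 (37.5%), and each of these lists was above the background in both replicates too. Among translation factors iff-2 was followed by eef-1G (signal 227), eef-2 (210.3) and eef-1A.1 (191), all elongation factors. The respiratory genes were led by atp-1 (329), nduc-2 (261), ndua-2 (184) and mev-1 (176). Of these, nduc-2 and ndua-2 encode subunits of complex I. The histone pairs were his-67/his-68 (203) and his-4/his-3 (104), and htz-1 (177) encodes the variant H2A.Z. Histone genes come in near-identical copies, so their values are uncertain where the authors' counting could split reads between copies. In the cell cycle list lin-54 (533) and lin-53 (355) were followed by rfc-4 (191), of the clamp loader, and lin-35 (159), the retinoblastoma protein, which like LIN-54 and LIN-53 belongs to DREAM. The line of rfc-4 is that of eef-1A.1, and the line of lin-54 is that of rpl-12. A region can thus count in several lists, so their counts are not independent.

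Vesicle trafficking genes had 9 of 26 (34.6%), led by sec-61.B (403), apb-1 (251), vps-32.1 (183) and vps-51 (159), and were below the background in replicate 1, with 7 of 26. The line of vps-51 is that of lin-35, and the line of apb-1 is that of mdt-19, on the Mediator list. Over all genes with a divergent candidate the share was 27.8%. Ubiquitin pathway genes had 8 of 29 (27.6%), close to it, led by fbxb-85 (283), ubc-6 (218), fbxa-90 (119) and math-33 (107). Splicing factors had 6 of 24 (25%), among them rsp-2/rsp-1, a head-to-head pair of SR protein genes (175), prp-40 (129.6) and prp-19 (107). Mitochondrial ribosomal proteins had 4 of 14 (28.6%), mrps-7 (139), mrpl-12 (131), mrpl-45 (84.1) and mrpl-17 (83.8). Subunits of RNA polymerases, TAFs and Mediator had 3 of 11 (27.3%), mdt-19 (251), mdt-26 (182) and taf-4 (113). Nuclear pore and transport genes had 3 of 17 (17.6%), npp-3 (195), npp-14 (139) and, weaker than these, nxf-1. Aminoacyl-tRNA synthetases had 2 of 9 (22.2%), ears-2 (252) and aars-1 (127), and the proteasome 2 of 16 (12.5%), rpn-3 (219) and rpt-6 (82.5). Here rpn-3 faced hsp-110, on the chaperone list, and rpt-6 faced the histone gene his-72. The nuclear pore, synthetase and proteasome lists were below the background in the pooled list and in each replicate.

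Genes outside the housekeeping lists were present as well, some of them beside a housekeeping partner. Their shares were near or below the 27.8% over all genes with a divergent candidate. Chemoreceptors had 5 of 17 genes (29.4%), led by sri-5 (202), srh-16 (183), sre-1 (112) and srz-97 (106). Nuclear hormone receptor and homeobox genes had 4 of 15 (26.7%), nhr-68 (215), nhr-47 (198), nhr-142 (193) and ceh-99 (100.4), and nhr-47 faced dnj-19. The collagen col-38 (111), the single cuticle collagen of 7 (14.3%), faced rpl-5. The single Notch and presenilin gene with a divergent candidate had none thresholded. Of the 1174 genes on no list, 293 (24.96%) had a thresholded divergent promoter, against 129 of 344 listed genes (37.5%). Of the 422 genes at these regions, 293 were thus on no list, as were 1174 of the 1518 with a divergent candidate.

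The high share was not limited to pairs with a listed gene. Of the 211 pairs, 25 had both genes on a list, 79 had 1 and 107 had neither. Divergent candidates of pairs with neither gene on a list were thresholded in 108 of 531 cases (20.3%), against 81 of 269 (30.1%) with 1 and 26 of 61 (42.6%) with both. Without pairs that hold a ribosomal protein gene the share was 190 of 811 (23.4%). All of these were above the 10.1% of candidates upstream of 1 gene, a class from which listed genes were not removed. These splits were chosen after seeing the data.

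The replicates gave these regions similar ranks. Of the 215, 189 (87.9%) overlapped by at least 1 bp one of the 1686 strongest lines of replicate 1, and 189 overlapped one of replicate 2. For 165 (76.7%) both held, for 48 (22.3%) 1 of them and for 2 neither. Both held for the same share, 76.7% (254 of 331), of lines upstream of 1 gene only, for 71.9% of all other promoter lines and for 67.7% beyond promoters. The summit lay within 50 bp of a replicate summit at 197 regions (91.6%) in replicate 1 and 201 (93.5%) in replicate 2, with median shifts of 10 and 8.00 bp. For lines upstream of 1 gene only these shares were 85.8% and 83.1%, and for all other promoter lines 85.2% and 81.5%. Replicate 1 alone gave 196 pairs and replicate 2 alone 205, of which 156 were shared, 79.6% of the first and 76.1% of the second. Spearman's rho between replicate signals was 0.739 over the 215 regions, 0.609 over 507 other promoter lines and 0.459 over 463 lines beyond promoters, values that describe regions of the same libraries and carry no test. The thresholded list was made from these replicates, so this is no independent check.

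The replicates ranked some of the regions far apart, and those with the most unequal ranks are given here. The region of dot-1.1/zwl-1 (signal 80.97) had a signal of 54.4 at rank 1219 in replicate 1 and 13.4 at rank 17051 in replicate 2. The ranks of T28D9.11/T28D9.1 in replicates 1 and 2 were 1121 and 11937, and those of supr-1/dnj-28 were 1027 and 5547. In the other direction, spn-4/spe-39 had ranks of 3095 and 564, C37C3.9/C37C3.18 of 6782 and 716, and C02E7.7/C02E7.6 of 7884 and 694. Of these 6, the pooled signals were between 80.1 and 100.3, near the low end of the list.

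**Figure D4:**
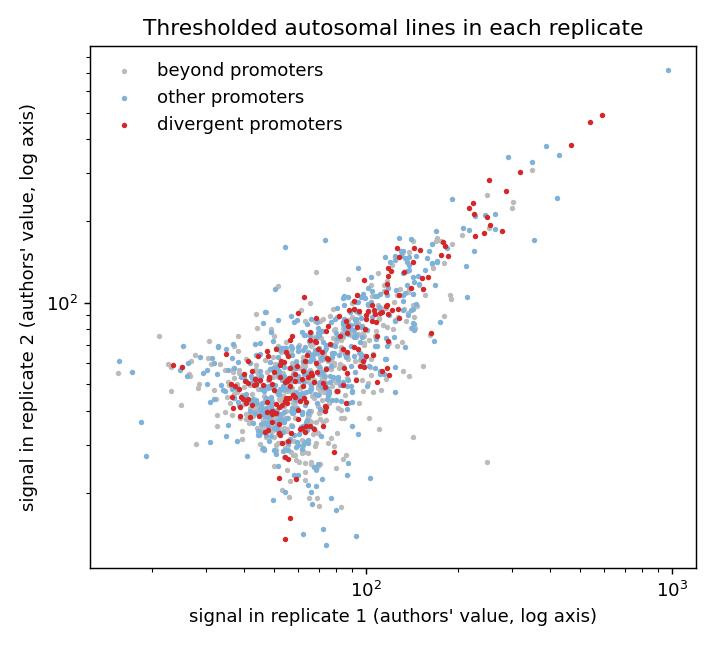
Signal of thresholded autosomal lines in replicate 1 (x axis) and replicate 2 (y axis), the authors' value on log axes. Red points are divergent promoters, blue points other promoters and grey points lines beyond promoters. The red points fall along the diagonal in their upper range, and the lowest red point, at 54.4 and 13.4, is dot-1.1/zwl-1.

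Divergent promoters had a median signal near that of other thresholded promoter regions. They took a larger share of the strongest lines than of the whole list. Their median signal was 124 (range 79.9 to 1081), against 119 for other promoter lines, 126 for those upstream of 1 gene only and 108 for lines beyond promoters. Their median rank among the 1663 nuclear lines was 701. They made up 14 of the 50 strongest nuclear lines, 35 of the 200 strongest and 119 of the 800 strongest, or 28%, 17.5% and 14.9%, against 12.9% of the whole list. For other promoter lines these shares were 26%, 35.5% and 33%, against 30.5% of the whole list. The deposited −log10 q was at its highest value for 202 of the 215 (93.95%), so it does not rank them.

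The members just inside the threshold were supr-1/dnj-28 and F31D4.2/fkb-6 (signal 80.1 each) and Y62E10A.20/Y62E10A.23 (79.9). Just below it were mdh-2/F20H11.4 (79.4), T07A9.15/nog-1 (79.2) and pas-4/rpb-3 (78.3), genes that include malate dehydrogenase, a proteasome subunit and an RNA polymerase II subunit. At the distance limit, R107.5/cls-2 had its farther start at 944 bp, nrde-2/atad-3 at 951 bp and efl-1/fbxa-90 at 957 bp. Just outside were lin-28/F02E9.7 at 1005 bp (signal 80.6), nep-26/mdt-22 at 1036 bp (117) and sec-61.G/F32D8.7 at 1064 bp (394). sec-61.G, like sec-61.B, encodes a translocon subunit. In all, 427 thresholded autosomal lines away from tRNA genes lay in a head-to-head gap of some length, and 212 of them had the farther start beyond 1000 bp.

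Summits of divergent promoters were GC-rich islands in AT-rich flanks, as were those of other thresholded promoter lines. Within 50 bp of the summit GC content was 48.8% ± 7.09 (SD over 215 regions), against 35.4% in stretches 200 to 250 bp away and 35.5% over the autosomes. Divergent candidates that were not thresholded had 37.1% ± 10.4 (n = 646), other promoter lines 46.7% and all autosomal candidates 38.1%. By signal, the 72 strongest of the 215 had 50.9% ± 7.15, the next 71 had 48.1% ± 5.85 and the 72 weakest 47.2% ± 7.66, spreads that overlap.

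Adenine to the left of the summit and thymine to the right had higher shares at these regions than at divergent candidates that were not thresholded. The rule treats both strands alike, so a likeness of the 2 sides follows from it and is no result. On the plus strand, adenine reached 40.9% of bases 100 bp to the left, where thymine was 25.8%. Thymine reached 40.95% of bases 100 bp to the right, where adenine was 26.3%. GC content was 52% at the summit, 30.5% at 120 bp to the left and 30.05% at 120 bp to the right. In divergent candidates that were not thresholded the same positions had 35.7% adenine on the left, 35.5% thymine on the right and 38.00% GC at the summit. In other thresholded promoter lines, which are not oriented, they had 33.7%, 33.1% and 49.6%.

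**Figure D5:**
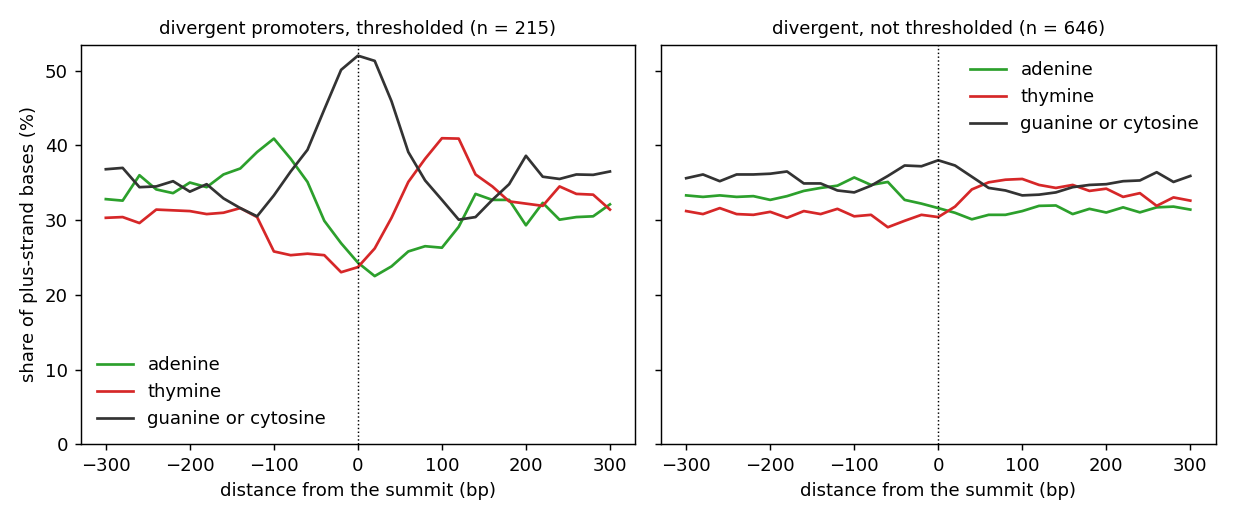
Base composition around the summit, as percent of plus-strand bases in bins of 20 bp, for the 215 thresholded divergent promoters (left) and 646 divergent candidates that were not thresholded (right). The x axis is the distance from the summit in bp, and lines are adenine (green), thymine (red) and guanine or cytosine (black). On the left side GC peaks at 52%, with adenine at 40.9% at 100 bp to the left and thymine at 40.95% at 100 bp to the right.

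Several short GC-containing words, but not all, had higher shares at these summits than at divergent candidates that were not thresholded. The AT-rich words given here had lower ones. Within 50 bp of the summit on either strand, CGCG stood in 119 of the 215 (55.3%), against 28.9% of divergent candidates that were not thresholded, 40.6% of other thresholded promoter lines and 14.9% of all autosomal candidates. GGCGCG, which holds CGCG and is the core of some E2F sites, stood in 19.1%, against 6.97%, 10.04% and 2.93%. GCGGGA, also an E2F-type core, did not differ, with 5.12%, against 5.11%, 5.51% and 2.99%. CGTCTC stood in 12.6%, against 7.28%, 17.9% and 5.47%, and CTGCGTCT in 6.51%, against 3.25%, 10.2% and 2.02%. Both of these had lower shares here than at other thresholded promoter lines. GGGCGG, the Sp1-type GC box, stood in 10.2%, against 4.33%, 6.69% and 3.04%. TATAAA, the TATA box, stood in 3.26%, against 14.1%, 5.71% and 12.7%, and TGATAA, the core of GATA factor sites, in 2.33%, against 8.82%, 5.31% and 9.06%. AAAAAT, however, stood in 31.6%, against 48.8%, 27.95% and 43.4%, and AAAAAA in 26.05%, against 45.5%, 19.7% and 36.5%, so both had higher shares here than at other thresholded promoter lines. CCAAT stood in 20.9%, against 13.9%, 13.6% and 19.1%. A word is a match of letters and not a site, and GC content differed between these classes too.

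From the 2080 words of 6 letters, ACCGTA and TACGCA were picked after the data were seen. Both had higher shares at the divergent promoters than at other thresholded promoter lines, though they were not the only such words. ACCGTA was in 41 of the 215 regions (19.1%), against 6.19% of divergent candidates that were not thresholded, 5.51% of other thresholded promoter lines, 6.65% of those upstream of 1 gene only and 3.38% of all autosomal candidates. TACGCA was in 37 (17.2%), against 5.42%, 6.30%, 6.95% and 2.55%. One word or the other was in 68 regions (31.6%). ACCGTA was in 11 of the 25 lines with a ribosomal protein gene and in 9 of the 25 strongest, and the median signal was 144 with it and 121 without. TACGCA was in 9 of the 25 ribosomal lines, and the median signal was 122 with it and 124 without. TGCGTC, by contrast, was in 19.5% of the divergent promoters and 18.1% of other thresholded promoter lines. These words were picked for their shares, so the shares are a description.

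All 5 autosomes held divergent promoter regions. There were 51 on chromosome III, 50 on I, 39 on V, 38 on II and 37 on IV. As a share of head-to-head pairs up to 2000 bp apart, thresholded pairs were 13.2% on III, 11.2% on I, 8.41% on IV, 7.94% on II and 5.73% on V. As a share of divergent candidates they were closer together, between 22.3% on V and 27.1% on III. With each autosome cut into 3 equal lengths, the central one held 92 of the 215 (42.8%), close to its 44.8% of divergent candidates and 40.6% of head-to-head pairs.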

How the data were processed

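Regions came from 1 group of 2 biological replicates. The deposited lists on ce11 hold, per line, the authors' signal and −log10 q, with interval and summit. Per the labels, lists were made on ce10 and ce11, and per the deposited text listings they were the input or the output of an irreproducible discovery rate analysis. The aligner, peak caller and threshold used were not given in the sources used here. With depth unknown, counting intervals were left out. The ce10 lists were not used. Highest region ends lay within the chromosome lengths of WBcel235, the same build, and genes came from Ensembl release 115.

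Summits were placed between consecutive protein-coding gene starts with Python 3.11.15, numpy 2.4.6 and pandas 2.3.3, by code tested on simulated data. Coordinates are 1-based. The strongest lines of a replicate were its 1686 lines of highest signal. Candidates overlap and are not independent. Members, gene lists and words were chosen with earlier results of these data known, and 2 list definitions were corrected after values were seen. Named regions were the 25 of highest signal, up to 4 per gene list, and those nearest each limit or most unequal between replicates. A few others were named after their values were seen. Alternatives changed the replicates, threshold, distance, gene starts, tRNA rule and overlap.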

Additional observations from a re-analysis of the deposited data

How the results depend on the processing

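The number of regions, 215, was 205 to 211 with either replicate alone and 122 from the strongest 843 lines, which hold fewer lines by construction. Their share of autosomal thresholded lines, 18.1%, was 16.9% to 17.2% with either replicate alone, 20.6% from the strongest 843 lines and 12.2% from the strongest 3372 candidates. It was 13.4% with both starts within 500 bp, 23.2% within 2000 bp, 18.8% with any transcript start, 16.8% with tRNA genes ignored and 28.1% outside gene bodies, where lines inside genes leave the total. The share of divergent candidates thresholded, 24.97%, was 26.6% to 29.7% with either replicate alone, 14.2% and 35.9% for those 843 and 3372 lines, 30.99% within 500 bp and 20.9% within 2000 bp. It was 20.3% without listed genes and 27.8% with 1 line per pair, both chosen after seeing the data. The share of pairs, 8.86%, was 8.23% to 8.61% with either replicate alone, 5.04% and 12.5% for the 843 and 3372 lines, and 9.49% within 500 bp. GC content at the summit, 48.8%, was 42.7% over 100 bp on each side and 47.2% to 49.8% under the other alternatives. Requiring overlap of 0.5 of the narrower interval left 87.9% of regions matched in each replicate, and summits within 100 bp left 86.98%. No paired analysis was possible because there was 1 group. Depth is unknown, no untagged control was used here, and 2 replicates give the only measure of error.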

Other observations

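RNA genes other than those for tRNA lay at some of the divergent promoters. An annotated ncRNA gene lay within 200 bp of the summit at 36 of the 215 (16.7%), against 9.44% of divergent candidates that were not thresholded, 13.8% of other thresholded promoter lines and 5.01% of all autosomal candidates. A snoRNA gene, whose product guides modification of other RNA, lay within 200 bp of 5 (2.33%), against 5.51% of other thresholded promoter lines and 0.797% of all autosomal candidates. An snRNA gene lay near 4 and a microRNA gene near 2. These counts were not tested.

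In 4 pairs, named after their values were seen, 2 summits met the rule. Of these, dnj-29/ndua-2 had signals of 184 and 105, aka-1/ubc-6 had 218 and 127, cids-2/phip-1 had 148 and 117 and srz-97/clec-57 had 106 and 100.1. Lines of the same pair share its DNA and are not independent. F44E5.4/F44E5.5, also among the members and named after its value was seen, joins 2 genes of the Hsp70 family that are near-identical copies, and its value is uncertain for that reason.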
